A study of Mus musculus with 5 samples.

Results

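Hephaestin, encoded by Heph, and 9 other iron handling genes are described here across 5 libraries of mouse tissue labelled dorsolateral prostate. The 10 genes (Heph, Hephl1, Cp, Slc40a1, Steap4, Slc11a2, Tfrc, Fth1, Ftl1 and Trf) were found by symbol among the 51912 gene IDs of the deposited tables, and all 10 were present. Heph was chosen by its fold change in the comparison of deletion with control libraries, where earlier results of these data placed it among the genes with the clearest difference, and Steap4 had been described in the same place. The other members are listed iron handling genes around it. Values in that comparison are therefore a description, and nothing is concluded from a test of them. The control group was 2 male mice of 7 months carrying Ghrflox/flox, floxed alleles of the growth hormone receptor gene, and SV40 C3(1) T-antigen+/0, a transgene whose promoter directs a viral oncoprotein to the prostate. The deletion group was 3 males of the same age with both of those and ROSA26Cre-ERT2+/0, a tamoxifen-activated recombinase from a locus used in nearly all cell types, so any cell of the tissue could have lost the receptor. All 5 mice were given 250 mg/kg of tamoxifen on each of 5 days and sampled 1 month later. The labels of the controls list no Cre, so loss of Ghr and presence of active Cre cannot be told apart.

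Iron enters most cells as ferric iron on transferrin, which binds the transferrin receptor and is taken into endosomes. There, metalloreductases of the STEAP family reduce it and the divalent metal transporter carries it to the cytosol. Iron that is not used is stored in ferritin shells built of heavy and light chains, or leaves the cell through ferroportin. Exported iron must be oxidised again before transferrin can carry it, which is the work of the multicopper ferroxidases hephaestin, ceruloplasmin and zyklopen. Hephaestin is best known from the basolateral side of the intestinal epithelium. Iron regulatory proteins adjust the system after transcription by binding iron-responsive elements, short hairpins in the untranslated ends of some of these mRNAs. Binding in a 5′ UTR blocks translation, and binding in the 3′ UTR of the transferrin receptor mRNA protects that mRNA from decay.

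Such hairpins are shown first because they are the known route by which iron acts on several of these mRNAs; those in 5′ UTRs act on translation, which mRNA counts do not read. A search of the GENCODE M21 transcripts (GRCm38) for a bulged C, 5 stem bases, the loop CAGTGN and a pairing stem found them in 5 of the 10 members, against 0.477% of 21793 protein-coding genes. Because such hairpins are already known in several of these mRNAs, finding them there was given in advance and is no test. Of the 5 bases below the bulge at least 4 had to pair, G could pair with T, and 1 extra unpaired base was allowed on the 3′ side. Without that extra base the share of all protein-coding genes was 0.193%. In the lines that follow, capitals mark the bulged C and the loop, and letters run 5′ to 3′ on the gene's strand.
Fth1: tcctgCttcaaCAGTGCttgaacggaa
Ftl1: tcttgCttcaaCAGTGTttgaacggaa
Slc40a1: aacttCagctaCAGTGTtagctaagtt
Slc11a2: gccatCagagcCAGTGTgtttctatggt
Tfrc site 1: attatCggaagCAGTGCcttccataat
Tfrc site 2: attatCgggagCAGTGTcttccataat
Tfrc site 3: tatatCggagaCAGTGAtctccatatg
Tfrc site 4: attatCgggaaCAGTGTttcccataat
The ferritin and ferroportin hairpins lay in 5′ UTRs, at chr19:9982733-9982759 (Fth1, plus strand), chr7:45459780-45459806 (Ftl1, minus) and chr1:45925466-45925492 (Slc40a1, minus). Those of the importers lay in 3′ UTRs, at chr15:100395153-100395180 for Slc11a2 (minus strand) and between chr16:32631220-32631246 and chr16:32631711-32631737 for the 4 Tfrc sites (plus strand). In Slc11a2 the match lay in 1 transcript (Slc11a2-205) and had the extra unpaired base. No match was found in the transcripts of Heph, Hephl1, Cp, Steap4 and Trf, which says only that this pattern is not in them.

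Total counts were 13812454 to 47656212 per library. Ghr itself read 14.4 and 31.2 CPM (counts scaled to library size, with TMM factors between libraries) in control replicates 1 and 2. It read 8.13, 20.9 and 12.1 CPM in the 3 deletion libraries in turn, so the groups overlapped for the targeted gene and its gene-level count does little to test the labels. The tissue label was poorly borne out by defining markers, since the 5 prostate markers checked summed to 1008 counts in control replicate 1 and to 18 to 68 counts in each other library. Seminal vesicle genes took 35.6% of counts in control replicate 1, 27.4% in deletion replicate 1 and 28.7% in deletion replicate 2, against 2.78% in control replicate 2 and 1.43% in deletion replicate 3 (95% Wilson intervals of at most ± 0.0164 percentage points). Svs2 alone read 191438 to 270026 CPM in the first 3 of these libraries and at most 2211 in the other 2. The libraries are therefore called Svs2-rich and Svs2-poor, a split at 10% of counts in the list, made after the data were seen. The rich libraries were not alike, since Svs1, Svs3a, Svs3b, Svs6 and Spinkl of the same list read at most 10.8 CPM in the 2 rich deletion libraries and at least 6321 CPM in control replicate 1. In bulk tissue, fewer cells of a type and less RNA per cell cannot be told apart.

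Per transcript length, the ferritin genes were the most abundant members, with 64.2 to 3256 TPM for Fth1 and 86.7 to 302 TPM for Ftl1 over the 5 libraries. Slc11a2 came next by its median of 33.7 TPM, with a range of 10.4 to 96.6 TPM. The remaining ranges overlapped widely, at 1.74 to 46.4 TPM for Cp, 1.02 to 21.4 for Tfrc, 0.79 to 19.2 for Trf, 1.91 to 16.1 for Heph, 0.32 to 13.2 for Slc40a1 and 0.44 to 9.27 for Steap4, and give these 6 genes no firm order.

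Among the ferroxidases Heph differed most between libraries. It had 204 and 69.7 CPM in the controls against 21.1, 13.1 and 16.4 CPM in deletion replicates 1, 2 and 3. Both controls lay above all deletion libraries, and the 3 deletion libraries lay much closer to each other than the controls did. The fitted log2 fold change was -3.02 (SE 0.489, 95% interval -4.19 to -1.85), with group means of 137 ± 94.7 (SD, n = 2) and 16.9 ± 3.99 CPM (SD, n = 3). With this scaling the size rested in good part on control replicate 1, and it was -2.05 without that library and -3.60 without control replicate 2. It was lower in the deletion libraries at either level of Svs2, at 204 against 21.1 and 13.1 CPM in the rich libraries and 69.7 against 16.4 CPM in the poor ones. Heph (ENSMUSG00000031209) lies on the plus strand of chromosome X from 96455359 to 96574485 (GRCm38). It shares 29 exon bases with Hsf3 on the other strand, which had 3 to 76 counts per library beside 420 to 4760 for Heph.

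On the authors' TPM, which are scaled to gene length and to all transcripts of a library, Heph did not separate the groups. It had 7.59 and 16.1 TPM in the controls against 2.63, 1.91 and 7.65 TPM in the deletion libraries, so deletion replicate 3 lay just above control replicate 1. The log2 difference on the log2(TPM + 0.1) scale was -1.68, where the median of all tested genes was 0.91, so relative to that median it was -2.59. With library size as the only scaling the fold change was -2.39 beside a median of 0.23. Heph stayed below zero under each of the 16 alternatives tried. Ratios within a library need no scaling between libraries. The TPM ratio of Heph to Cp was 4.36 and 0.631 in the controls against 0.197, 0.121 and 0.165 in the deletion libraries, and that of Heph to Slc40a1, the exporter it serves, was 23.7 and 5.52 against 1.71, 2.58 and 0.581. Neither ratio overlapped between the groups, but Heph was chosen for its difference in this contrast, and the ratios carry that difference. TPM also divides by transcript length, which for Cp was shorter in all deletion libraries. With no share over all genes beside them, nothing is read from the separation of these ratios.

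The ferroxidase of blood plasma, ceruloplasmin (Cp), did not share this pattern. Cp had 36.0 and 82.0 CPM in the controls against 62.8, 67.4 and 64.4 CPM in the deletion libraries. The deletion libraries were nearly equal and lay between the controls. The log2 fold change was 0.14 (95% interval -0.78 to 1.05), and its sign turned without control replicate 1 (-0.34). Hephl1, which encodes zyklopen, the ferroxidase known from placenta, had 1 count in control replicate 2 and 0 in each other library. At these depths 3 counts, the limit that a count of 0 allows, stand for 0.0556 to 0.145 CPM. Hephl1 was the member left out of the fit by the filter on low counts, so 9 members were tested.

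**Figure D1:**
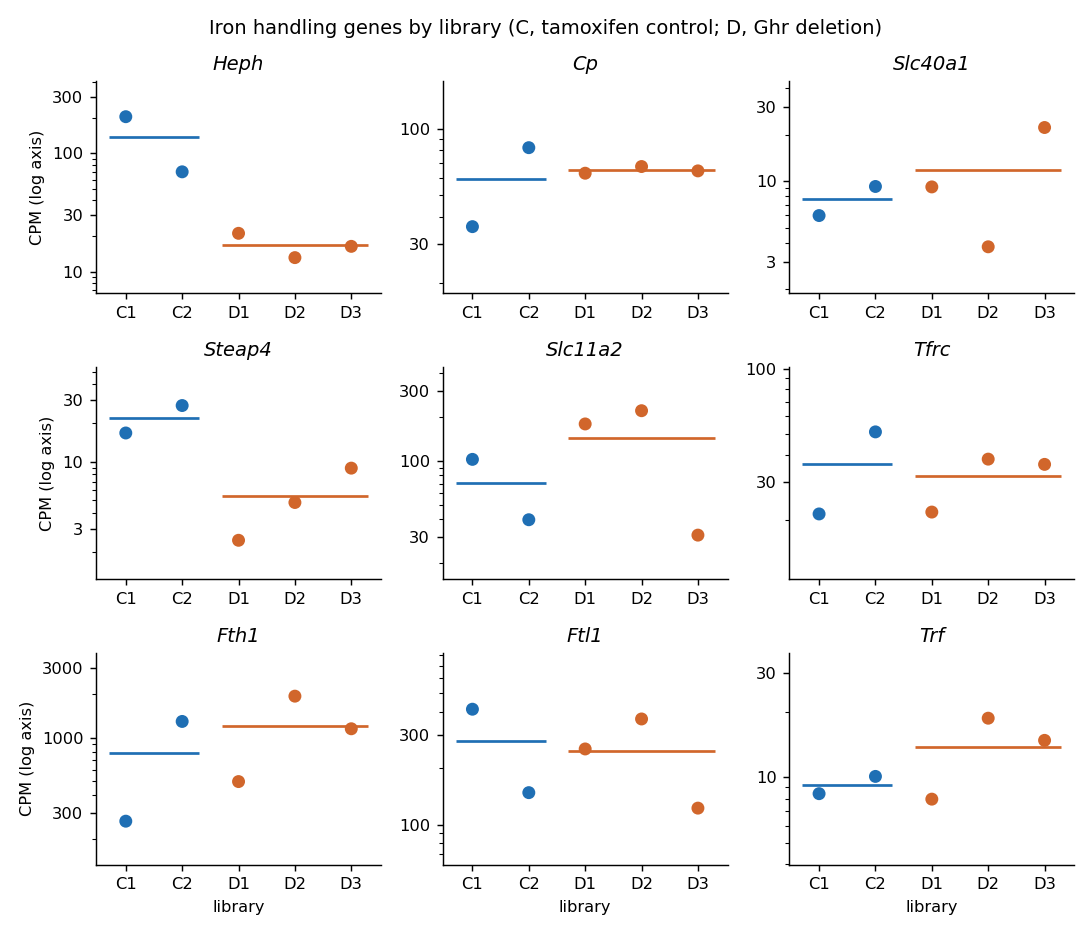
TMM-scaled CPM (log axis) of the 9 tested members in control libraries (C1 and C2, blue) and Ghr deletion libraries (D1 to D3, orange), with 1 point per library and a line at each group mean. Heph and Steap4 have both controls above all deletion libraries, and the groups overlap for the other 7 genes.

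Steap4, a metalloreductase that reduces iron and copper, was the other member whose groups did not overlap. It had 16.7 and 27.3 CPM in the controls against 2.45, 4.82 and 8.91 CPM in the deletion libraries. Deletion replicate 3 was the nearest to the controls, still below control replicate 1. Its log2 fold change was -2.02 (SE 0.571, 95% interval -3.39 to -0.66). Within the Svs2-rich libraries the values were 16.7 against 2.45 and 4.82 CPM, and within the poor ones 27.3 against 8.91. With library size as the only scaling, and on TPM, the groups overlapped. In TPM Steap4 read 0.91 and 9.27 in the controls against 0.44, 1.01 and 5.65 in the deletion libraries. The ratio of Steap4 to Cp in TPM was 0.523 and 0.364 in the controls against 0.0329, 0.0640 and 0.122 in the deletion libraries, with no overlap. Steap4 too had been described from this contrast, so nothing is read from that separation.

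Counted together, 2 of the 9 tested members had groups that did not overlap in CPM, and in both the deletion libraries were lower, where 10.2% of all 18615 tested genes were separated on that side and 9.43% on the higher side. The members were chosen with this contrast known, so nothing is read from that share. By edgeR's quasi-likelihood test 0 of the 9 members passed at a Benjamini-Hochberg adjusted p under 0.05 (adjusted p of 0.985 to 0.997), as did 0% of all genes. At an unadjusted p under 0.05 there were 2 members, Heph and Steap4, both lower, beside 4.92% of all genes on either side and 3.23% on the lower. DESeq2 passed 1 member, Heph, beside 0.830% of all genes, and limma-voom passed 0. In TPM 1 member separated the groups, Slc11a2 on the higher side, beside 5.68% of all genes on either side. Most of those genes were also on the higher side, since 0.688% of all genes were separated on the lower. The median log2 fold change of the 9 was 0.14 and that of all tested genes was 0.0045.

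**Figure D2:**
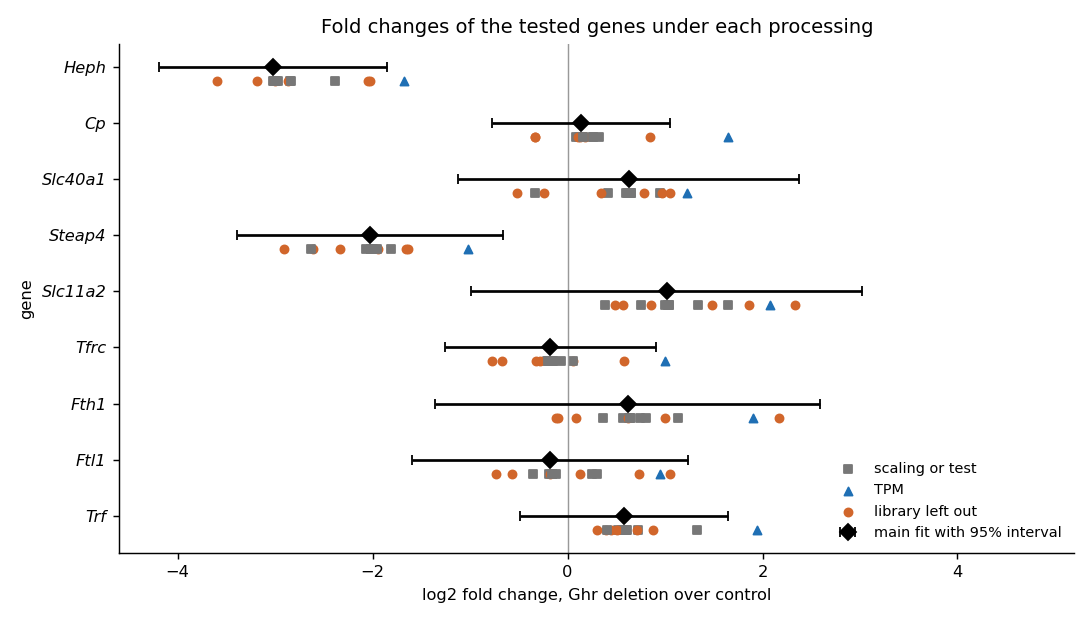
Log2 fold change of Ghr deletion over control for the 9 tested members. Black diamonds with bars are the edgeR estimates with 95% intervals, and smaller marks are the other scalings and tests (grey), fits with libraries left out (orange) and the authors' TPM (blue triangles). The marks of Heph and Steap4 all lie below zero, and those of Cp, Slc40a1, Tfrc, Fth1 and Ftl1 fall on both sides.

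By the root mean square difference of centred log2 CPM over 5 libraries, the genes nearest to Heph in pattern among 12535 ranked were Vcan (0.174), Nusap1 (0.174), Uhrf1 (0.206), Diaph3 (0.217) and Kif11 (0.228). Vcan encodes the matrix proteoglycan versican, Nusap1 a spindle protein, Uhrf1 a reader of hemimethylated DNA, Diaph3 an actin-nucleating formin and Kif11 a spindle motor. Vcan had 45.6 and 18.2 CPM in the controls against 6.48, 3.38 and 3.61 CPM in the deletion libraries, and Nusap1 10.3 and 3.10 against 1.33, 0.720 and 0.797. Like Heph, these genes were highest in control replicate 1, intermediate in control replicate 2 and low in all deletion libraries. They were ranked by likeness to Heph in these same libraries, so the shared order was given by the selection. Steap4 stood at rank 693 in likeness to Heph and the next member, Ftl1, at rank 4863.

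In TMM-scaled CPM, mitosis markers and markers of several cell types were lower in the deletion libraries, as Heph was. Over all tested genes 10.2% were separated on the lower side. The 12 mitosis markers were all lower in the deletion libraries with no overlap, and they summed to 254 and 49.4 CPM in the controls against 8.34, 12.1 and 6.91 CPM in the deletion libraries. Of 10 macrophage markers 9 were separated on the lower side, with sums of 102 to 147 CPM in the controls against 56.3 to 72.2 in the deletion libraries. Of 7 endothelial markers 6 were, with sums of 77.2 to 93.1 against 27.6 to 45.0 CPM. Of 7 fibroblast and collagen markers 4 were, with sums of 335 to 527 against 80.2 to 253 CPM. No marker of these 4 lists was at 0 in any library. With library size as the only scaling, the macrophage, endothelial and fibroblast sums overlapped between the groups. The sum of the mitosis markers did not. Luminal epithelial markers, 5 genes, summed to 999 to 1465 CPM in the controls against 887 to 1913 in the deletion libraries, with 1 separated on each side. Smooth muscle markers, 5 genes, summed to 1689 and 3022 CPM in the controls against 4240, 1167 and 2599 in the deletion libraries. Nerve and Schwann cell markers, 6 genes, summed to 40.2 and 67.5 against 41.6, 54.7 and 80.8 CPM. No smooth muscle or nerve marker was separated. What dividing cells or any of these cell types contributed to the Heph and Steap4 values was not tested.

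**Figure D3:**
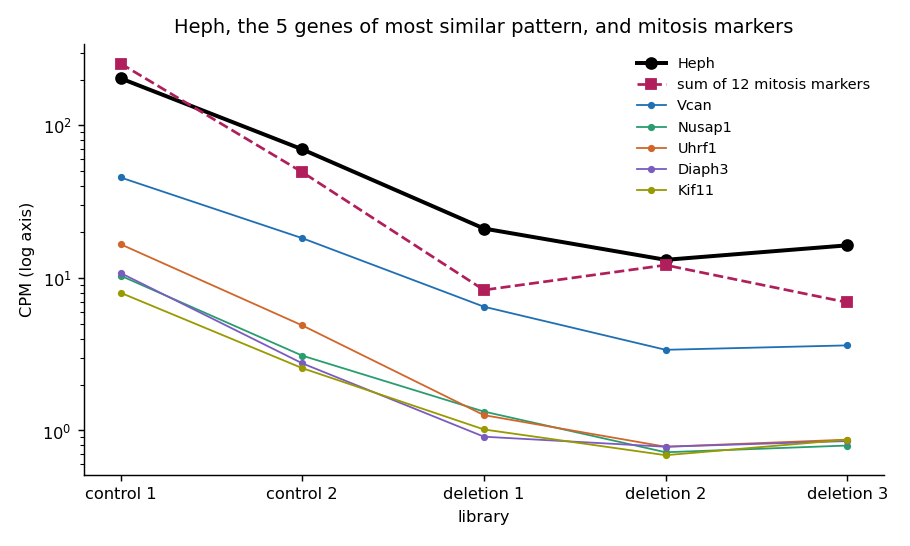
TMM-scaled CPM (log axis) of Heph (black), the 5 genes nearest to it in pattern, and the sum of 12 mitosis markers (dashed) in each of the 5 libraries. Lines join the points of a gene only to guide the eye. Each is highest in control replicate 1, lower in control replicate 2 and lowest among the 3 deletion libraries, where Heph reads 13.1 to 21.1 CPM.

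Ferroportin (Slc40a1), the only known cellular iron exporter, was scarce and highest in deletion replicate 3. It had 5.99 and 9.24 CPM in the controls against 9.18, 3.76 and 22.3 CPM in the deletion libraries. Markers of macrophages, a cell type rich in ferroportin, summed to 72.2 CPM in deletion replicate 3, above the other 2 deletion libraries (64.5 and 56.3 CPM) and below both controls (102 and 147 CPM). Urothelial markers were highest in that library, at 171 CPM over 5 genes against 25.2 to 79.9 in the others. The part of either in the Slc40a1 values was not tested. The log2 fold change of Slc40a1 was 0.63 (95% interval -1.13 to 2.38), and it was -0.25 without deletion replicate 3.

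In CPM the iron import genes overlapped between the groups. The transferrin receptor gene Tfrc had 21.3 and 50.9 CPM in the controls against 21.7, 38.1 and 36.0 CPM in the deletion libraries, so all deletion values lay between the controls. Its log2 fold change was -0.18 (95% interval -1.26 to 0.91), and on TPM the sign turned (1.00, or 0.085 relative to the median of all genes). Tfrc carries the 4 hairpins printed above. Its CPM differed 2.40-fold between the highest and the lowest library, while its TPM ran from 1.02 to 21.4. The divalent metal transporter gene Slc11a2 had 102 and 39.5 CPM in the controls against 179, 221 and 31.0 CPM in deletion replicates 1, 2 and 3. Deletion replicate 3 was the lowest library and the other 2 deletion libraries the highest, so the log2 fold change of 1.02 had a 95% interval of -0.99 to 3.02. In TPM it read 10.4 and 18.2 in the controls against 61.3, 96.6 and 33.7, with all deletion libraries above both controls. The log2 difference on TPM was 2.08, or 1.17 relative to the median of all genes. TPM also divides by transcript length, which for this gene ran from 1621 to 2382 bases. The separation thus depended on the measure, and the parts of scaling and length were not tested.

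In TMM-scaled CPM, Slc11a2 and the light ferritin chain gene Ftl1 were instead high in the same 3 libraries. Ftl1 had 412 CPM in control replicate 1, 253 in deletion replicate 1 and 365 in deletion replicate 2, the Svs2-rich libraries. It had 148 and 123 CPM in control replicate 2 and deletion replicate 3, the poor ones. Slc11a2 averaged 167.5 CPM over the rich and 35.3 over the poor libraries. In TPM neither gene split this way. Control replicate 1, a rich library, was the lowest for both, at 86.7 TPM for Ftl1 and 10.4 TPM for Slc11a2. Slc40a1 was lower in each rich library than in either poor one, but by a near tie. It read 9.18 CPM in deletion replicate 1 (262 counts) and 9.24 CPM in control replicate 2 (191 counts). Over all tested genes 15.4% were higher in all 3 rich libraries than in both poor ones and 16.6% were lower, so 2 and 1 of 9 members are close to that background. The rich libraries differed in another content, as the 4 vas deferens and epididymis markers summed to 14.7 CPM in control replicate 1 and to 5356 and 4916 CPM in deletion replicates 1 and 2. With Svs2-rich or Svs2-poor as a term in the fit, an alternative added after seeing the data, the fold change of Slc11a2 was 0.39 (SE 0.401) and that of Heph -2.97 (SE 0.433; edgeR, adjusted p = 0.537).

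**Figure D4:**
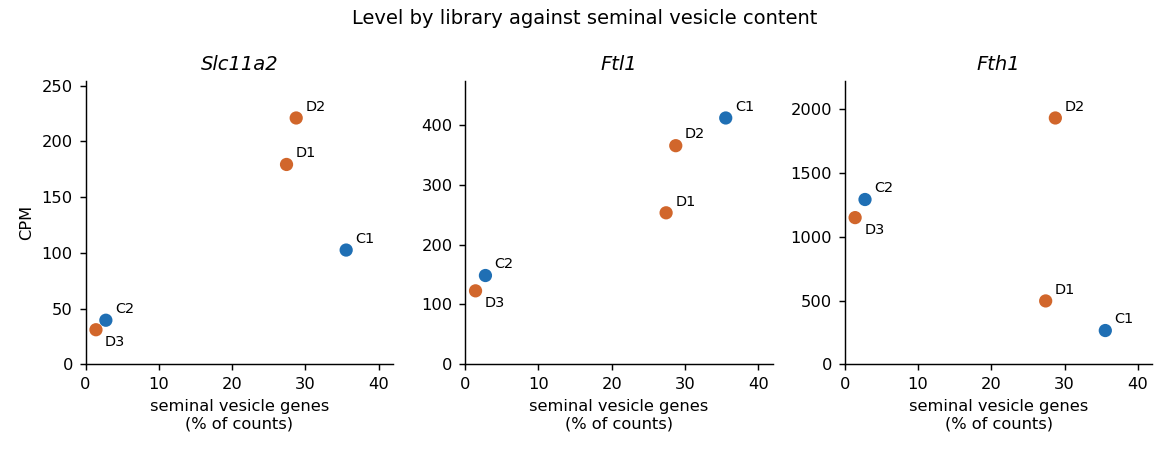
TMM-scaled CPM of Slc11a2, Ftl1 and Fth1 (vertical axes) against the percentage of each library's counts in 9 seminal vesicle genes (horizontal axes), with 1 point per control (C, blue) or Ghr deletion (D, orange) library. On this scale, but not in TPM, Slc11a2 and Ftl1 are higher in the 3 libraries above 27% than in the 2 below 3%. Fth1 shows no such split.

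The ferritin chains did not move together. The heavy chain gene Fth1, whose product has the ferroxidase site of the shell, was among the most abundant mRNAs. It had 265 and 1292 CPM in the controls against 497, 1931 and 1150 CPM in the deletion libraries. Control replicate 1 was lowest and deletion replicate 2 highest, a 7.30-fold range, and the groups overlapped. The log2 fold change was 0.62 (95% interval -1.36 to 2.59), and without control replicate 1 it was -0.12. For Ftl1 it was -0.18 (95% interval -1.60 to 1.24), and its sign turned with library size as the only scaling (0.26), on TPM and without control replicate 1 (0.74).

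Per length, Fth1 exceeded Ftl1 in 4 of the 5 libraries. The TPM ratio of Fth1 to Ftl1 was 0.741 in control replicate 1 and 10.04 in control replicate 2. For deletion replicates 1, 2 and 3 it was 2.27, 6.10 and 10.8. The controls thus held both the lowest ratio and nearly the highest, and the ratio differed 14.5-fold over the libraries. Both ferritin genes have processed copies whose reads can be hard to assign. Of those named as such in the annotation, Ftl1-ps1 took 34.6 to 143 expected counts and Fth-ps2 12 to 31, beside at least 3067 for Ftl1 and 6190 for Fth1. Copies under other names were not searched.

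Transferrin mRNA (Trf), which encodes the iron carrier of plasma, was low and its count depends on how reads were divided. It had 8.42 and 10.1 CPM in the controls against 7.95, 18.7 and 14.8 CPM in the deletion libraries, with overlapping groups and a log2 fold change of 0.58 (95% interval -0.49 to 1.64). A neighbouring gene model on the same strand, Gm20425, runs through Trf and shares 2108 exon bases with it. RSEM gave Gm20425 0 and 105 counts in the controls against 418, 757 and 502 counts in the deletion libraries. Summed over Trf and Gm20425, a choice made after seeing the data, the values were 8.42 and 15.2 CPM in the controls against 22.6, 42.4 and 24.1 CPM in the deletion libraries. In TMM-scaled CPM the sum was higher in all deletion libraries than in both controls, as 9.43% of all tested genes were. Its log2 fold change was 1.33 (SE 0.444), and it did not pass (edgeR, adjusted p = 0.989). With library size as the only scaling the groups narrowly overlapped. Control replicate 2 had 314 of 13812454 counts and deletion replicate 1 had 645 of 28536636. Gm20425 also extends past the 3′ end of Trf, and reads there were not set apart.

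The mean transcript length that RSEM gives per gene reads out the mix of transcripts rather than the level. Among the 7 members with more than 1 listed transcript, this length was shorter in all deletion libraries than in both controls for Heph, Cp and Trf, and longer for none. Over the 12389 tested genes with more than 1 transcript and a varying length, 11.0% were separated on the shorter side and 9.03% on the longer. Cp had 3523 and 3427 bases in the controls against 2718, 2846 and 2799 in the deletion libraries. Trf had 1913 and 2012 against 1217, 1696 and 1643 bases, and Heph 4511 and 4540 against 4485, 4466 and 4206. Cp thus differed clearly, and Heph hardly except in deletion replicate 3. Cp shares 108 exon bases with Hps3 on the other strand, which had 370 to 967 counts per library beside 843 to 3474 for Cp. The Trf length rests on the same division of reads as its count. Slc11a2 shares 402 exon bases with Gm5475 on the other strand, which had 20 to 132 counts per library. Ftl1 likewise shares 355 with Gm10252, which had 200 to 635.

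For Slc11a2 the mean length was 1792 and 2382 bases in the controls against 1770, 1621 and 1924 in the deletion libraries. The transcript with the hairpin, Slc11a2-205, is 4415 bases long and the longest without it, Slc11a2-201, is 3025. All 5 means lay below both, so RSEM gave part of this gene's signal to its shorter transcripts in every library. The longest mean was in control replicate 2. Tfrc ranged from 3357 to 4024 bases with overlapping groups. The largest ratio between libraries among the members was 1.65, for Trf, where the median over all such genes was 1.18.

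**Figure D5:**
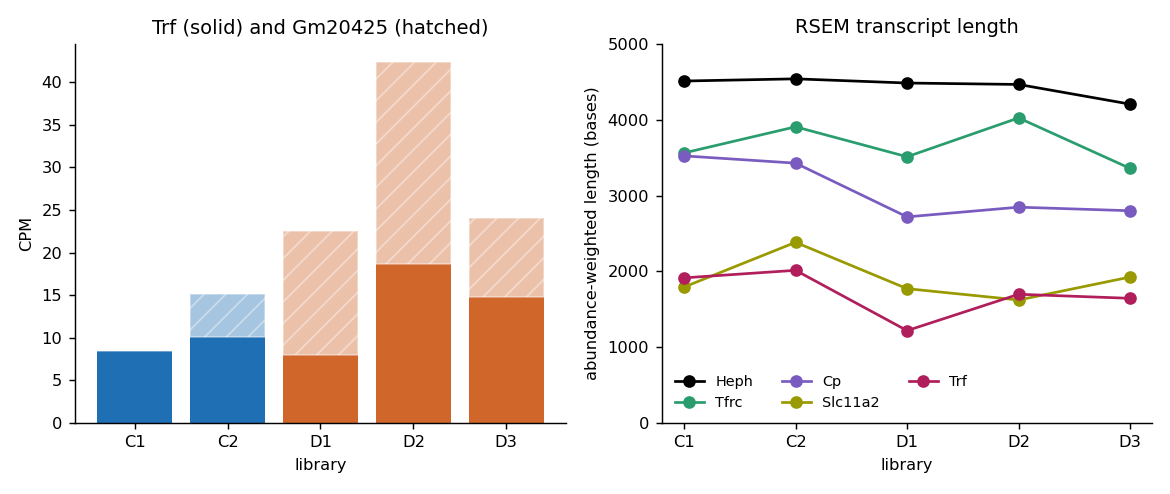
Left, CPM of Trf (solid) and of the overlapping gene model Gm20425 (hatched) stacked by library, with controls in blue and Ghr deletion libraries in orange. Right, RSEM's abundance-weighted transcript length in bases for 5 members, with lines only to guide the eye. With TMM scaling the stacked sum is 8.42 and 15.2 CPM in the controls against 22.6 to 42.4 in the deletion libraries. The Cp length is at least 3427 bases in both controls and at most 2846 in the deletion libraries.

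Other genes of iron handling, in 6 lists that hold none of the members, showed no shift as a whole. The tables held 89 such genes, of which 80 were tested, with 33 lower and 47 higher by fold change and a median log2 fold change of 0.098. By edgeR 0 of the 80 passed over all genes, 4 did at an unadjusted p under 0.05, and none (0) with DESeq2. The controls lay above all deletion libraries for 11 genes and below them for 3, 17.5% in all, where 19.6% of all tested genes were separated on either side. The iron uptake and reduction list had 10 of 15 tested genes lower and a median of -0.46. The heme list had 9 of 16 lower (median -0.18), the mitochondrial iron and iron-sulfur cluster list 9 of 27 lower (0.17), and the iron sensing and hepcidin list 2 of 9 lower (0.13). Copper supply genes, which serve the multicopper ferroxidases, were lower for 2 of 10 with a median of 0.25, and no group separation.

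Heme genes gave several of the lower values without overlap in CPM, 4 of 16 tested, beside 10.2% of all tested genes on that side. Of these, only Alas2 stayed separated with library size as the only scaling. Alas2, the erythroid enzyme that starts heme synthesis, had 3.59 and 2.03 CPM in the controls against 0.876, 0.626 and 0.760 CPM in the deletion libraries. All deletion values lay well below either control, on counts of 20 to 84. Flvcr1, a heme exporter, had 15.8 and 23.7 CPM against 11.1, 11.6 and 10.8, and Alad, the second enzyme of the pathway, 38.8 and 31.8 against 24.1, 28.1 and 17.9. The biliverdin reductase gene Blvra stood at 7.57 and 8.85 CPM against 6.44, 6.76 and 6.08. The 7 red cell markers, mostly globins, summed to 14.8 and 8.71 CPM in the controls against 9.88, 1.10 and 3.65 in the deletion libraries, with 1 to 3 of them at 0 per library, and their part was not tested.

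In the uptake list, Flvcr2, of the same transporter family as Flvcr1, had 13.2 and 7.69 CPM in the controls against 5.25, 5.54 and 4.76 CPM in the deletion libraries. Slc22a17, the lipocalin receptor gene, had 4.79 and 4.55 against 3.54, 1.72 and 2.72 CPM. Slc48a1, a heme transporter of lysosomes, was on the higher side, at 36.0 and 47.8 against 56.4, 120 and 54.6 CPM. Hp, the hemoglobin scavenger haptoglobin, had 0.257 and 0.145 CPM against 0.315, 25.6 and 0.704, so its difference was that of deletion replicate 2. Ireb2, which encodes an iron regulatory protein that binds the hairpins printed above, had 130 and 94.6 CPM against 83.7, 74.6 and 83.8. In the iron-sulfur list Iba57 had 4.06 and 3.63 against 2.87, 1.66 and 3.30 CPM, and Isca2 10.3 and 10.6 against 12.4, 17.8 and 10.7. None of these 11 genes passed in edgeR (adjusted p of 0.991 to 0.995).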

How the data were processed

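Per the submitters' processing notes, bcl2fastq 2.20.422, STAR 2.5.3a, RSEM 1.3.0 and build GRCm38 were used; for annotation release and strand setting the sources used here give nothing, and overlapping genes may share reads. Per the labels' protocols, total RNA was made into libraries with a stranded total RNA kit. Per the file headers, the authors deposited RSEM's expected counts (not normalized), TPM and an abundance-weighted transcript length per gene; these lengths equalled those of GENCODE M21, used for positions and hairpins, in 94.7% of 32653 single-transcript genes, though Fth1 had 866 bases in the files and 929 in M21.

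Symbols matched 99.46% of IDs. Expected counts were rounded and fitted with edgeR 4.0.16 (R 4.3.3): filterByExpr (18615 genes kept), TMM (factors 0.491 to 1.61), robust glmQLFit, group only, all 5 libraries. SEs came from the fold change and F. DESeq2 1.42.0, limma 3.58.1 and other scalings were alternatives. The fit was tested on simulated data. The 50 most abundant genes held 22.7% to 74.7% of counts. Floors and intervals cover counting error only.

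Members and lists were chosen with earlier results of these data known. Pathway genes named were the up to 4 of smallest p per list with separate groups and a mean of at least 1 CPM. The genes likest Heph exclude predicted genes and pseudogenes. Replicate numbers were not treated as pairs.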

Additional observations from a re-analysis of the deposited data

How the results depend on the processing

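The fold change of Heph kept its sign under 16 alternatives (-3.60 to -1.68; adjusted p of 0.000108 to 1.00), and ranged from -3.60 to -2.05 with each library left out. It passed with DESeq2 (-3.01, adjusted p = 0.000108). It also passed without control replicate 2 (-3.60), a fit with control replicate 1 as its only control. That library was the higher control for Heph in CPM (204 against 69.7) but not in TPM (7.59 against 16.1). The fit assumed that it varies like the deletion libraries, so nothing is read from this pass. Members past the threshold were 1 with DESeq2 and 0 to 1 with each library left out. The count of members with separate groups was 1 with library size alone (Heph) and 1 on TPM (Slc11a2, higher), ranged from 2 to 6 with each library left out, and was 7 without control replicate 1 and deletion replicate 3 together. With fewer libraries more of all genes separate: 19.6% with all 5, 30.4% to 56.1% with each left out (56.1% where 6 members did) and 67.8% without those 2, against 7.88% with library size alone. The number of iron pathway genes past the threshold was 1 with library size alone (Hp) and 0 otherwise. The largest length ratio ranged from 1.47 to 1.65.

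Signs turned, none of them past the threshold, as follows. With control replicate 1 and deletion replicate 3 both left out, Cp was -0.34, Slc40a1 -0.52, Fth1 -0.095 and Ftl1 1.06. With each library left out, Cp ranged from -0.34 to 0.84, Slc40a1 from -0.25 to 1.05, Tfrc from -0.67 to 0.58, Fth1 from -0.12 to 2.17 and Ftl1 from -0.74 to 0.74. On TPM, Tfrc was 1.00 and Ftl1 0.95, and with library size alone Ftl1 was 0.26. With Svs2 content (rich or poor) as a term Tfrc was 0.055. The causes were not tested.

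The labels give both groups replicates 1 and 2, but nothing says the numbers mark a shared source, and deviations of same-numbered libraries correlated across genes at 0.106 and -0.130. With a replicate block Heph was -2.84 (edgeR, adjusted p = 0.165), Slc40a1 -0.34 and Ftl1 0.30, and 8 genes of all passed in place of 0. The median of all genes moved to 0.91 on TPM and 0.23 with library size alone. Animal, tissue content and library cannot be told apart as sources of the spread between the 2 controls. At these depths Hephl1, with 1 count in all, could not be tested.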

Other observations

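Several iron-binding or metal-binding genes of the lists varied strongly within each group and were chosen here after their values were seen. The metallothionein genes Mt1 and Mt2, whose products bind zinc and copper, were highest in the 3 libraries rich in Svs2 and other seminal vesicle transcripts. Mt1 read 35.3 CPM in control replicate 1 and as much as 94.5 in deletion replicate 2, against 4.69 in control replicate 2 and 2.93 in deletion replicate 3. Deletion replicate 1 lay between them on 571 counts. Mt2 read 14.6, 7.04 and 34.6 CPM in the rich libraries and 1.55 and 0.649 in the other 2.

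Another 3 genes had the opposite order over these libraries. Lcn2, encoding lipocalin 2, which binds iron-loaded siderophores, read 44.5 and 592 CPM in the controls against 42.2, 118 and 387 in the deletion libraries. Ltf, encoding lactoferrin, read 3.29 and 88.6 against 22.8, 39.0 and 151 CPM. Slc39a8, a zinc and iron importer, read 7.65 and 208 against 69.0, 81.2 and 130 CPM. All 3 genes were highest in control replicate 2 and deletion replicate 3, the Svs2-poor libraries.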
